A study of Mus musculus with 3 samples.

Results

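The genes described here are 43 genes of macroautophagy, chosen by name as a fixed list of the pathway's machinery and not by their values on these arrays. Earlier results of these data were known when the list was chosen. They were found by matching the RefSeq accession of each probe to a gene symbol, which gave 58 probes for the 43 genes, of 20660 genes and 27235 probes matched in all. Of the 43 genes, 29 had 1 probe and 14 had several. A gene is represented by its brightest probe, the one with the highest mean signal.

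Macroautophagy encloses cytoplasm and organelles in a double-membraned autophagosome, which then fuses with a lysosome. A kinase complex starts the process, a lipid kinase complex marks the site, and a membrane supply and a pair of ubiquitin-like conjugation reactions build the vesicle and attach Atg8 proteins to it. Receptors bring cargo to the Atg8 proteins, a fusion machinery joins the vesicle to the lysosome, and transcription factors of the TFEB family raise many of the genes involved. Macroautophagy is distinct from chaperone-mediated autophagy, in which single proteins cross the lysosomal membrane.

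The arrays held RNA of NIH3T3 cells, a mouse embryonic fibroblast line grown here to confluence in medium with serum and collected at 24 h. Cells were left untreated (None), treated with 20 µM AR7, an atypical modulator of the retinoic acid receptor alpha (RARα), or treated with 20 µM BMS614, a selective antagonist of that receptor. The compounds were dissolved in DMSO. The authors describe the untreated cells as cultured without additions, and the sources used here do not name the solvent for them. Each condition has 1 one-colour Agilent array, so that differences between conditions could not be checked in a replicate, no test was made and no p-value is given.

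Signals are log2 values after background correction and quantile normalization of the 3 arrays (RMA). The error given after ± is the SD, at that signal, of the differences between 2 arrays over repeated spots of one probe, taken from 256 probes printed on 10 spots of each array, and it covers spot error only. For AR7 against None it ranged from 0.337 among the dimmest probes to 0.050 among the brightest. The upper quartile of spot intensity was 692 for None, 780.5 for AR7 and 909 for BMS614, and the share of probes well above background was 55.4%, 61.2% and 61.8%. All 8 fibroblast markers were well above background on each array, with Col3a1 the dimmest at 5.57, 5.23 and 5.28 for None, AR7 and BMS614. Of the markers of other cell types, 2 of 4 epithelial, 1 to 2 of 2 leukocyte and 2 to 3 of 3 endothelial genes with a probe were also well above background, and their part in the results was not tested.

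Of the 43 autophagy genes, 42 were well above background on all 3 arrays, against 13805 of the 20660 genes in all. The exception was Atg4a, a protease that processes Atg8 proteins, whose only probe was at 3.23, 2.70 and 2.64 and did not reach that mark on any of them. No spot of a member was saturated or marked as an outlier. The counts below are over the 42 measured genes.

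Differences of the autophagy genes were small. No member differed by 1.5-fold in any of the 3 comparisons, where 2.29% of all genes did so for AR7 against None, 2.76% for BMS614 against None and 1.83% for AR7 against BMS614. With AR7, members lay between -0.23 and 0.32 on the log2 scale relative to None, and with BMS614 between -0.40 and 0.36. Both comparisons share the None array, so their values are given side by side and not set against each other.

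At 1.2-fold, 1 member was higher with AR7 than in None (Rubcn, background 5.76% of all genes) and none was lower (background 6.38%). With BMS614, 1 member was higher than in None (Epg5, background 6.73%) and 2 were lower (Optn and Tfeb, background 7.57%). Between the compounds, 4 members were higher with AR7 (Atg16l1, Calcoco1, Sqstm1 and Tfeb, background 5.98%) and 1 was higher with BMS614 (Epg5, background 5.98%). These counts are of brightest probes. Among the dimmer probes, those of Wipi1 and Pik3c3 were lower than None past 1.2-fold with AR7, and that of Atg7 with BMS614. The dimmer Atg4c probe was lower with AR7 than with BMS614 past 1.2-fold, and no dimmer probe was past it in the other direction. The number of members past 2 SD of repeated spots was 8 of 42 for AR7 against None, where 19.1% of all genes passed it. It was 11 of 42 for BMS614 against None (background 26.4%) and 13 of 42 for AR7 against BMS614 (background 28.6%). At 2 SD the members' shares were close to those of all genes. At 1.2-fold they were below those of all genes except among genes higher with AR7 than with BMS614, where 4 of 42 members passed. These are counts of few genes, and of the 4, Calcoco1 and Tfeb were within 2 SD of repeated spots.

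**Figure D1:**
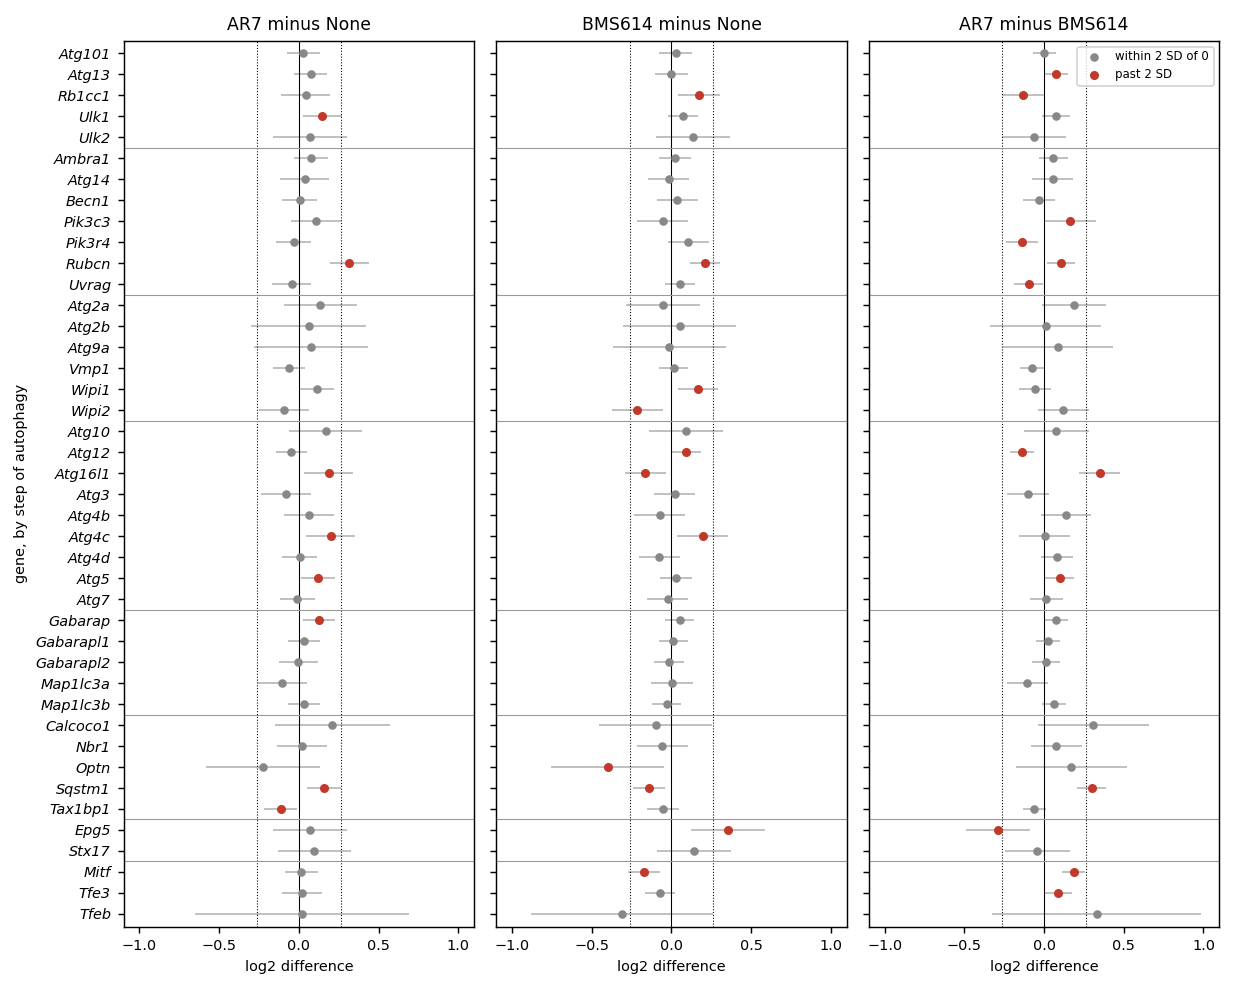
Log2 differences of the 42 measured autophagy genes (y axis, by step of the pathway) for AR7 minus None, BMS614 minus None and AR7 minus BMS614 (x axes). Bars span 2 SD of repeated spots on each side, dotted lines mark 1.2-fold, and red points are past 2 SD, 8, 11 and 13 genes in the 3 panels.

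More members lay above None than below it with AR7, by small differences. Relative to None, 31 of 42 members were higher with AR7, with a median of 0.04 (1.03-fold), while 47.9% of all genes were higher and their median was -0.0054. With BMS614, 22 of 42 members were higher than in None, with a median of 0.0061, beside 49.0% of all genes, and that median was below 0 under other scalings. Between the compounds, 29 of 42 members were higher with AR7, with a median of 0.06 (1.04-fold), beside 49.6% of all genes. By the brightest probes, the AR7 array held the highest of the 3 signals for 25 members, BMS614 for 12 and None for 5. No such count over all genes is given here.

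The direction with AR7 depended on which probe stood for a gene. Among the 13 members with several measured probes, the brightest probe was higher with AR7 than in None for 10 genes. Of the 14 dimmer probes of the same genes, 3 were higher and 11 were lower, with a median of -0.05, while 39.9% of the dimmer probes of all genes were higher. Over all 56 measured probes of the members, 34 were higher with AR7 and 22 were lower, and 46.1% of all measured probes were higher. Brightest and dimmer probes had the same sign for 6 of the 13 genes with AR7 against None, 9 with BMS614 against None and 7 with AR7 against BMS614. A median that averaged all probes of a gene was 0.0198 for AR7 against None.

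**Figure D2:**
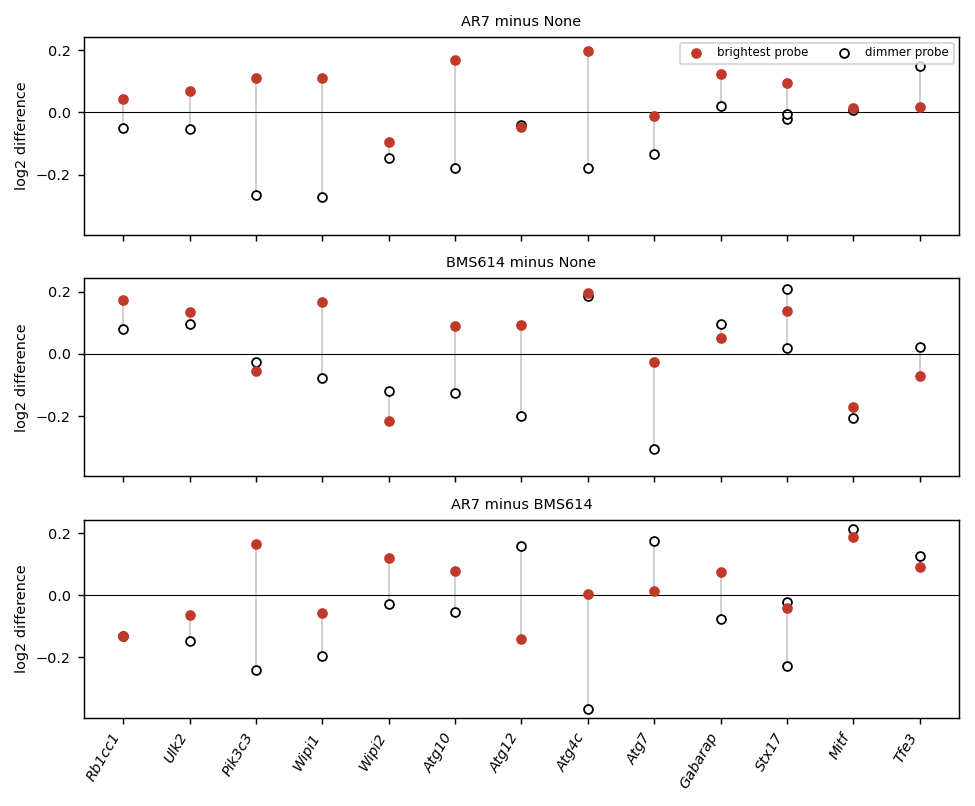
Log2 differences (y axes) of the brightest probe (red) and the dimmer probes (open) of the 13 autophagy genes with several measured probes (x axis), for the 3 comparisons. With AR7 against None, 10 of 13 brightest probes lie above 0 and 11 of 14 dimmer probes lie below it.

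**Figure D3:**
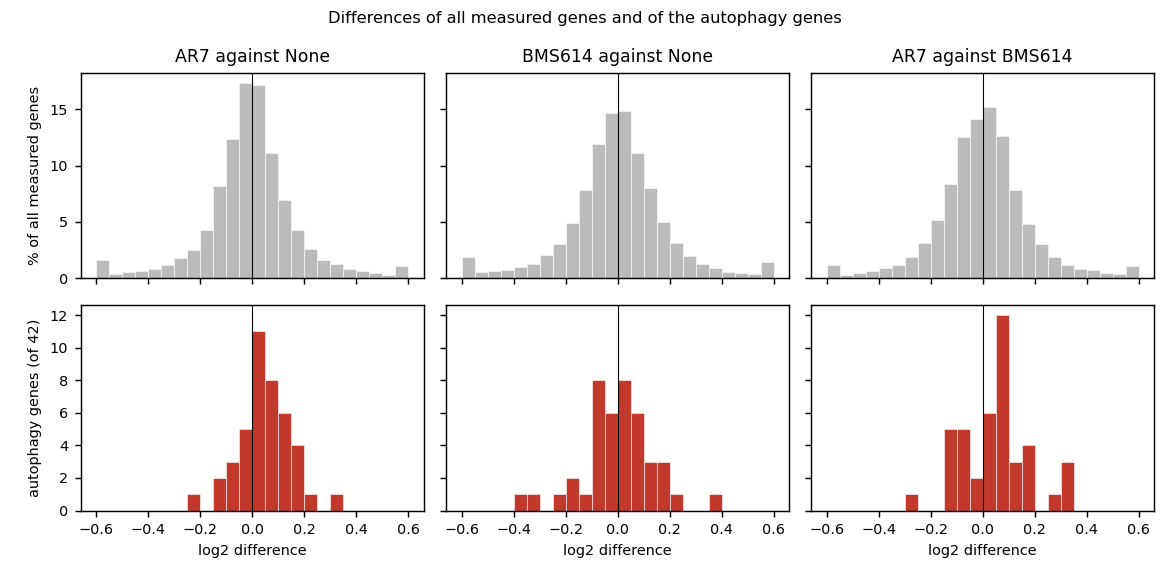
Distribution of log2 differences (x axes) of all 13805 measured genes (top, percent of genes) and of the 42 autophagy genes (bottom, number of genes), for the 3 comparisons. The outermost bins hold all values beyond them, and the members' medians lie at 0.04, 0.0061 and 0.06.

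The initiation complex consists of the kinases Ulk1 and Ulk2 with Atg13, the scaffold Rb1cc1 (FIP200) and Atg101. By their brightest probes all 5 genes were higher with AR7 than in None, by 0.03 to 0.15, where 47.9% of all genes were higher. Only Ulk1 was past 2 SD. Atg101 lay below None when the processed signal of the scanner software was used (-0.02), and the mean of both Rb1cc1 probes was at -0.0044. The dimmer Ulk2 probe was lower with AR7 than in None, at -0.05. Ulk1, the kinase that responds to nutrient signals, gave 13.18 in None, 13.33 with AR7 and 13.25 with BMS614. Its difference was 0.15 ± 0.06 with AR7, past 2 SD, and 0.07 ± 0.05 with BMS614. The AR7 value was as low as 0.07 under the alternative scalings. Rb1cc1 was highest with BMS614, at 9.78 in None, 9.83 with AR7 and 9.96 with BMS614. The difference from None was 0.04 ± 0.08 with AR7 and 0.17 ± 0.07 with BMS614, and the second probe gave -0.05 and 0.08. Between the compounds both Rb1cc1 probes were lower with AR7, each by a difference of -0.13. Atg13 gave 12.31, 12.38 and 12.31, which put AR7 above BMS614 by 0.08 ± 0.04, or by as little as 0.03 under the alternative scalings. Ulk2 and Atg101 were within 2 SD in each comparison.

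The nucleation complex makes the lipid phosphatidylinositol 3-phosphate (PI3P) through the kinase Pik3c3 (VPS34) with Pik3r4 (VPS15) and Becn1. Rubcn, or Rubicon, which binds this complex and restrains autophagosome maturation, had the largest difference with AR7 among the 42 members in the RMA values. Its signal was 12.67 in None, 12.99 with AR7 and 12.88 with BMS614, so that both treated arrays were above None. The difference from None was 0.32 ± 0.06 with AR7 (1.25-fold) and 0.21 ± 0.05 with BMS614 (1.16-fold), and AR7 was above BMS614 by 0.11 ± 0.04, or by as little as 0.03 under the alternative scalings. The AR7 difference was 0.22 with the processed signal of the scanner software and 0.24 in the deposited table, both under 1.2-fold. Calcoco1, at 0.27, exceeded Rubcn with the processed signal. A second Rubcn probe did not rise well above background on any of the arrays.

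Pik3r4, the regulatory subunit, and Map1lc3b (LC3B), an Atg8 protein, were each measured by a probe printed on 10 spots of each array, which gives them an error of their own. Pik3r4 gave 10.45 ± 0.22 in None, 10.42 ± 0.19 with AR7 and 10.56 ± 0.21 with BMS614 (SD over 10 spots), where the spread between positions is shared by the arrays. Position by position, it was higher with BMS614 than in None on 10 of 10 spots, by 0.11 ± 0.05, and higher with AR7 than in None on 2 of 10, by a mean difference of -0.03 ± 0.06. AR7 was below BMS614 on 10 of 10 spots, with a mean difference of -0.14 ± 0.03. Map1lc3b gave 14.49 ± 0.16 in None, 14.52 ± 0.12 with AR7 and 14.46 ± 0.13 with BMS614. It was higher with AR7 than in None on 7 of 10 spots, by 0.03 ± 0.07, and higher with BMS614 on 2 of 10, by a mean difference of -0.03 ± 0.06. AR7 was above BMS614 on 10 of 10 spots, by 0.06 ± 0.03. The 2 genes thus lay in opposite directions between the compounds at every spot, by differences well under 1.2-fold. Spots of an array share its RNA and are not replicates of a condition.

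**Figure D4:**
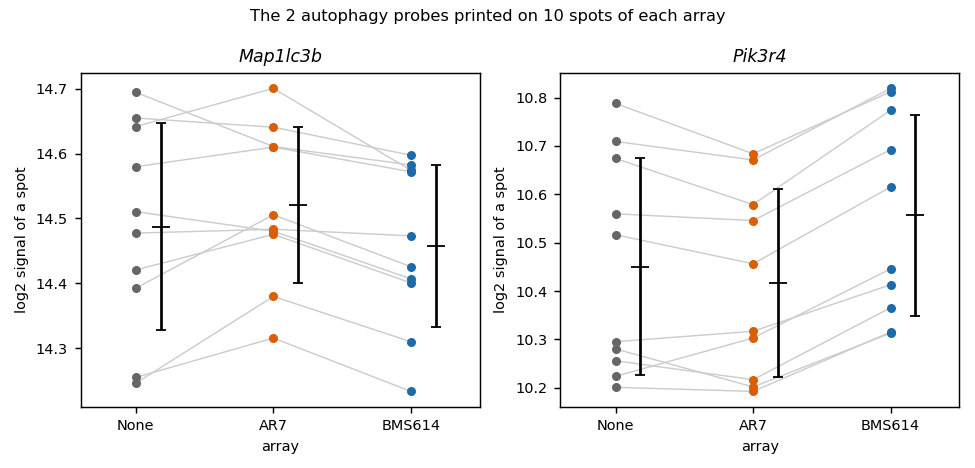
Log2 signal (y axes) of each of the 10 spots of the Map1lc3b and Pik3r4 probes on the None, AR7 and BMS614 arrays (x axes). Lines join spots at the same position, and the black bars are the mean and SD of 10 spots. All 10 lines go down from AR7 to BMS614 for Map1lc3b and up for Pik3r4.

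Pik3c3 gave 9.24 in None, 9.35 with AR7 and 9.18 with BMS614, which put AR7 above BMS614 by 0.16 ± 0.08, or by as little as 0.09 under the alternative scalings. Its dimmer probe ran the other way, at 8.54, 8.27 and 8.51. Uvrag, which joins the nucleation complex at maturation, gave 13.53, 13.48 and 13.58, with AR7 below BMS614 by a difference of -0.10 ± 0.04. Becn1, Ambra1 and Atg14 were within 2 SD in each comparison. Their differences from None lay between 0.0042 for Becn1 and 0.08 for Ambra1 with AR7 and between -0.02 for Atg14 and 0.04 for Becn1 with BMS614.

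Membrane supply rests on the scramblase Atg9a, the lipid transfer proteins Atg2a and Atg2b, the membrane protein Vmp1, and the PI3P-binding proteins Wipi1 and Wipi2. Wipi1 gave 10.50 in None, 10.61 with AR7 and 10.67 with BMS614, so that both treated arrays were higher, by 0.11 ± 0.06 and 0.17 ± 0.06. Its dimmer probe was lower than None on both, with differences of -0.27 and -0.08. Wipi2, which recruits Atg16l1, gave 9.82, 9.73 and 9.61, lower on both treated arrays. The differences were -0.10 ± 0.08 with AR7 and -0.22 ± 0.08 with BMS614, and its dimmer probe was lower on both too, at -0.15 and -0.12. Atg2a, Atg2b, Atg9a and Vmp1 were within 2 SD in each comparison.

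Conjugation couples Atg12 to Atg5 and Atg8 proteins to lipid, through the E1-like Atg7, the E2-like Atg10 and Atg3, the scaffold Atg16l1 and the Atg4 proteases. Atg16l1, which places the Atg12-Atg5 conjugate on the growing membrane, had the largest difference between the compounds among brightest probes in the RMA values. With the processed signal, Tfeb (0.58), Sqstm1 (0.31) and Calcoco1 (0.31) exceeded it, and in the deposited table Tfeb (0.47) did. It gave 9.90 in None, 10.09 with AR7 and 9.74 with BMS614, so that the treated arrays lay on opposite sides of None. The difference was 0.19 ± 0.08 with AR7 and -0.16 ± 0.07 with BMS614, and AR7 was above BMS614 by 0.35 ± 0.06 (1.27-fold). That last value lay between 0.29 and 0.36 over the alternative settings.

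Atg4c was higher on both treated arrays, at 9.38 in None, 9.58 with AR7 and 9.58 with BMS614. Each difference was 0.20 ± 0.08, though the dimmer Atg4c probe gave -0.18 with AR7 and 0.19 with BMS614. Between the compounds the dimmer probe was lower with AR7, by a difference of -0.37 ± 0.10, while the brightest gave 0.0038. Atg5 gave 11.76, 11.89 and 11.79, a difference of 0.12 ± 0.05 with AR7 and 0.03 ± 0.05 with BMS614, and the AR7 value was as low as 0.05 under the alternative scalings. Atg12 gave 14.41, 14.36 and 14.50, a difference of 0.09 ± 0.05 with BMS614 that was as low as 0.04 under the alternative scalings, while its dimmer probe was lower with BMS614 at -0.20. The Atg12 difference between the compounds, -0.14 ± 0.04 by the brightest probe, was 0.16 by the dimmer one. Atg3, Atg4b, Atg4d, Atg7 and Atg10 were within 2 SD in each comparison by their brightest probes.

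The Atg8 family, the proteins attached to the vesicle membrane, lay close together in the plot of signals by array. Map1lc3b is described above. Gabarap gave 15.54 in None, 15.66 with AR7 and 15.59 with BMS614, a difference of 0.12 ± 0.05 with AR7, past 2 SD, that was 0.01 with the processed signal of the scanner software. Gabarapl1 gave 14.99, 15.02 and 15.00, and Gabarapl2 gave 13.37, 13.37 and 13.36, each on the 3 arrays within 2 SD of the others. Map1lc3a gave 10.03, 9.93 and 10.04, lowest with AR7 by a difference of -0.10 ± 0.08 from None. By the brightest probes, no member of the family was past 2 SD with BMS614 or between the compounds. The dimmer Gabarap probe gave 0.02 ± 0.06 with AR7 and 0.10 ± 0.05 with BMS614, the latter past 2 SD. For AR7 against BMS614 it gave -0.08 ± 0.04, opposite in sign to the brightest probe.

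**Figure D5:**
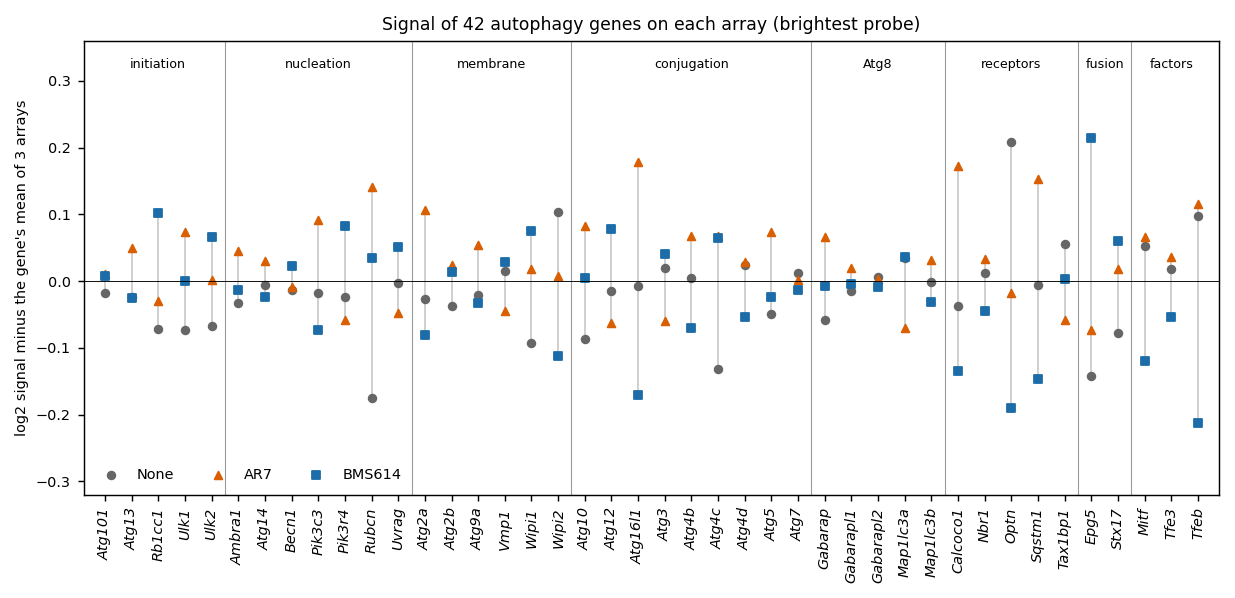
Log2 signal of each of the 42 autophagy genes (x axis, by step) on the None, AR7 and BMS614 arrays, minus the mean of the 3 arrays for that gene (y axis), by the brightest probe. The AR7 array is highest for 25 genes, and BMS614 is the lowest of the 3 for 19, with no such count over all genes given.

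Receptors bind cargo and Atg8 proteins together. All 5 receptors were lower with BMS614 than in None, with a median difference of -0.10, where 6988 of all 13805 genes were lower. Only Optn and Sqstm1 were past 2 SD. Each receptor stayed below None under the alternative scalings of the same arrays. With AR7, 3 receptors were higher than in None and 2 were lower. Sqstm1 (p62), the receptor for ubiquitinated cargo, gave 11.42 in None, 11.58 with AR7 and 11.28 with BMS614, with the treated arrays on opposite sides of None. The difference was 0.16 ± 0.05 with AR7 and -0.14 ± 0.05 with BMS614, and AR7 was above BMS614 by 0.30 ± 0.05 (1.23-fold). That value lay between 0.29 and 0.31 over the alternative settings.

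Optn (optineurin), a receptor in the clearance of mitochondria and bacteria, was dim and lower on both treated arrays. It gave 7.22 in None, 6.99 with AR7 and 6.82 with BMS614, with differences of -0.23 ± 0.18 and -0.40 ± 0.18 (1.32-fold lower with BMS614). The BMS614 difference was -0.20 with normexp background correction and -0.25 with the processed signal, both under 1.2-fold. Calcoco1 gave 7.35, 7.56 and 7.25, and its 0.31 ± 0.17 between AR7 and BMS614 was past 1.2-fold but within 2 SD. Tax1bp1, which binds ubiquitin, gave 11.98, 11.87 and 11.93, a difference of -0.11 ± 0.05 with AR7 that was past 2 SD. Nbr1, a partner of p62, gave 8.75, 8.77 and 8.69, within 2 SD throughout.

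In the fusion step, Epg5, which tethers autophagosomes to late endosomes and lysosomes, was highest with BMS614. It gave 7.66 in None, 7.73 with AR7 and 8.02 with BMS614. The difference from None was 0.07 ± 0.11 with AR7 and 0.36 ± 0.12 with BMS614 (1.28-fold), and AR7 was below BMS614 by a difference of -0.29 ± 0.10. With normexp these 2 BMS614 differences were 0.23 and -0.19, both under 1.2-fold, and the one between the compounds was also under it with the processed signal (-0.25) and in the deposited table (-0.26). The SNARE Stx17 gave 8.42, 8.52 and 8.56, within 2 SD in each comparison. Its other probes gave 0.21 and 0.02 with BMS614.

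The transcription factors Tfeb, Tfe3 and Mitf bind a shared E-box motif and raise lysosomal and autophagy genes when they enter the nucleus, a step that RNA levels do not measure. By their brightest probes all 3 were lower with BMS614 than in None, by differences of -0.07 to -0.31. Of all 13805 genes, 6988 were lower. Only Mitf was past 2 SD, and each brightest probe stayed below None under the alternative scalings of the same arrays. Mitf gave 12.63 in None, 12.65 with AR7 and 12.46 with BMS614, so that BMS614 stood apart from the others. The difference was 0.01 ± 0.05 with AR7 and -0.17 ± 0.05 with BMS614, and AR7 was above BMS614 by 0.19 ± 0.04. The second Mitf probe gave 0.01, -0.21 and 0.21 for the same comparisons. Tfe3 gave 13.11, 13.13 and 13.04, with AR7 above BMS614 by 0.09 ± 0.04 and its second probe at 0.02 with BMS614 against None. Tfeb was dim, at 5.08, 5.10 and 4.78, and its difference with BMS614, -0.31 ± 0.28, was past 1.2-fold but within 2 SD. The same held for its difference between AR7 and BMS614, 0.33 ± 0.33. With AR7, the brightest probes of the 3 factors differed from None by no more than 0.02, and that sign turned under some scalings. The second Tfe3 probe, however, was higher with AR7 by 0.15 ± 0.06, past 2 SD, at 10.72 in None and 10.87 with AR7.

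The E-box these factors bind was looked for in RefSeq promoter windows (assembly GRCm38.p6), which run from 250 bases before to 50 after a transcription start and were matched for 36 of the 43 genes, in 48 windows. The letters CACGTG, searched on both strands, lay in 5 of the 48 windows (10.4%) and in 7.15% of 32851 windows in all. The longer TCACGTG, which contains CACGTG, lay in 4 (8.33%), those of Rubcn, Atg14, Atg3 and Atg7, and in 3.77% of all windows. The antioxidant response element core TGACNNNGC lay in 8 windows (16.7%), of Atg13, Map1lc3b, Mitf, Tax1bp1, Ulk2 and Vmp1, and in 12.4% of all windows. The 4 windows with TCACGTG are printed because they hold the motif in full, with the match on either strand in capitals. They lie at chr16:32868317-32868616, minus strand (Rubcn, 1 of its 2 windows), chr14:47568385-47568684, minus strand (Atg14), chr16:45158579-45158878, plus strand (Atg3), and chr6:114670846-114671145, plus strand (Atg7).
Rubcn: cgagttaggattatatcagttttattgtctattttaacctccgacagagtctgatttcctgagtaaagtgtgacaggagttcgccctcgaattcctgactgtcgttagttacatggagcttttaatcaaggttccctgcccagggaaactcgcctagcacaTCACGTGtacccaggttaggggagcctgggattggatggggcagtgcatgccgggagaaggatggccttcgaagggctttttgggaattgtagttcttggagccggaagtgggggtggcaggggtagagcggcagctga
Atg14: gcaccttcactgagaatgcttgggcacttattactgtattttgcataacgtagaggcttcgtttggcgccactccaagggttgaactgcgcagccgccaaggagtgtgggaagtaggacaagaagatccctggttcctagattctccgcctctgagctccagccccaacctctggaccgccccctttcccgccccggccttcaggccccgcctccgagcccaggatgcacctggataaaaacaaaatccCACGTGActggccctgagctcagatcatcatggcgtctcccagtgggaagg
Atg3: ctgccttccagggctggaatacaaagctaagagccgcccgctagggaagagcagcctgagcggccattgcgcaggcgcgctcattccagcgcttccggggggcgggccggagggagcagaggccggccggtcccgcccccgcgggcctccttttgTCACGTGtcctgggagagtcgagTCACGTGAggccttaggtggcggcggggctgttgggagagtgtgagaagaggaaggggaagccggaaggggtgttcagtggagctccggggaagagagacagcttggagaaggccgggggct
Atg7: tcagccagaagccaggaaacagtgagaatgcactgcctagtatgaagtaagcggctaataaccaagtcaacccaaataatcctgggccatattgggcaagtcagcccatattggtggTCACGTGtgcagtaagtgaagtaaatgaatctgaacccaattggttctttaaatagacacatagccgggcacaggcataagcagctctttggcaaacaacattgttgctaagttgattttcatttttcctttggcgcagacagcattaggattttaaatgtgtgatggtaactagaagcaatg
In the Atg14 window the match begins 1 base before the start, and in the Rubcn window 89 bases before it. The Atg3 window holds the motif in 2 places, the second of which reads the same on both strands. The 4 genes did not share a direction. With BMS614, Rubcn differed from None by 0.21, Atg14 by -0.02, Atg3 by 0.02 and Atg7 by -0.02, and with AR7 by 0.32, 0.04, -0.08 and -0.01. These are values of brightest probes. The dimmer Atg7 probe gave -0.31 ± 0.18 with BMS614, past 1.2-fold but within 2 SD, and -0.13 ± 0.18 with AR7. A match is a description of the letters in these windows and not a measured binding site.

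Around the machinery, 64 further genes of upstream signalling, accessory factors, organelle receptors and fusion were examined, of which 63 had a probe and 59 were measured. At 1.2-fold, 2 of the 59 were higher with AR7 than in None (background 5.76%) and 1 was lower (background 6.38%). With BMS614, 4 were higher (background 6.73%) and 2 were lower (background 7.57%), and between the compounds 1 was higher with AR7 and 4 were lower (background 5.98% each). Their medians were -0.0024 with AR7 and 0.0070 with BMS614, and 28 and 31 of 59 were higher than in None. At 1.5-fold, none of the 59 differed between AR7 and None (background 2.29%) and 1 between BMS614 and None (Wdfy3, background 2.76%). Between the compounds 2 did, Wdfy3 and Ddit4 (background 1.83%). Wdfy3 (ALFY), an adaptor for the clearance of protein aggregates, gave 5.70 in None, 6.12 with AR7 and 6.98 with BMS614, a difference of 1.28 ± 0.28 with BMS614 (2.44-fold). Ddit4 (REDD1), an inhibitor of mTORC1, gave 12.97, 12.91 and 13.50, and BMS614 was above AR7 by 1.51-fold. Both were highest with BMS614, as Epg5 was.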

How the data were processed

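Total RNA was labelled with Cy3 and hybridized to one-colour Agilent arrays, 1 per condition, and all 3 lay on one slide. Groups were taken from the treatment given in the labels. The authors deposited scanner output with an intensity per spot, without normalization between arrays. A deposited table of processed values, also in intensity units, follows each array's background-subtracted signal linearly. The submitters' processing notes name RMA and the oligo package. Here the RMA convolution background, quantile normalization and log2 were computed from the median pixel intensity of spots that are not controls (R 4.3.3, limma 3.58.1, without oligo), and spots of a probe were averaged. Quantile normalization gives the arrays the same distribution, so that a shift of all genes cannot be seen. Differences, counts and plots were made in Python 3.11.15 (pandas 2.3.3, numpy 2.4.6, matplotlib 3.10.9).

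Probes were named through RefSeq accessions (27235 of 55681). A gene was counted as measured if its brightest probe was well above background on all 3 arrays. A difference was counted at 1.2-fold, with 1.5-fold and 2 SD of repeated spots as alternatives. Members named with values are those past 1.2-fold or 2 SD, the Atg8 family, the receptors and the transcription factors. The members, steps and lists were chosen with earlier results of these data known. Other alternatives were the processed signal or the RMA background scaled to the 75th percentile, normexp with an offset of 50, spike-in scaling, the deposited table with values below 16 set to 16, the mean of a gene's probes, and no filter on dim probes. Values were made relative to the all-gene median under any scaling that shifted it by over 0.1. The number of arrays limits the precision. The steps were tested on simulated data.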

Additional observations from a re-analysis of the deposited data

How the results depend on the processing

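No paired analysis was possible because a condition is a lone array, and leaving out an array would leave no comparison. The number of members past 1.2-fold, 1 for AR7 against None, was 0 in the deposited table, 2 with no filter on dim probes (Atg4a added), 0 at 1.5-fold and 8 at 2 SD. It kept its value of 1 with the processed signal, but for Calcoco1 in place of Rubcn. For BMS614 against None, the count of 3 was 0 with normexp, 0 at 1.5-fold and 11 at 2 SD. For AR7 against BMS614, the count of 5 was 2 with normexp (Atg16l1 and Sqstm1), 0 at 1.5-fold and 13 at 2 SD. Among single members, Rubcn (AR7 against None) lost its call with the processed signal and in the deposited table, Optn (BMS614 against None) with the processed signal and normexp, and Calcoco1 and Epg5 with normexp. Epg5 between the compounds was also lost with the processed signal and in the deposited table. Tfeb, the dimmest member called, lost both calls with normexp and where the RMA background was scaled to the 75th percentile or the spike-ins. The median for AR7 against None, 0.0395, was 0.0549 with spike-in scaling and 0.0198 by the mean of a gene's probes, and the number of members higher lay between 26 and 32 of 42. The median for BMS614 against None, 0.0061, was -0.0073 by the mean of a gene's probes and also below 0 with the processed signal and where the RMA background was scaled to the 75th percentile or the spike-ins. The median for AR7 against BMS614, 0.0604, was 0.0443 with the processed signal, 0.0313 in the deposited table and 0.0348 by the mean of a gene's probes. The causes were not tested. With spike-in scaling the all-gene median shifted by 0.20 for AR7, 0.34 for BMS614 and -0.14 between them, and its values are relative to that. The other 32 alternative values stayed within 1.5 times the count or, for medians, within the tolerance set by the spot SD. Dim members, with spot SDs up to 0.34, limit what could be seen.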
